A study of Mus musculus with 2 samples.

Results

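Neuropeptides are made as large precursors, sorted into dense core vesicles and cut into short active peptides before release. In the forebrain each peptide marks certain neurons, so that *Cck* belongs mainly to cortical, claustral, hippocampal and amygdala neurons, *Nts* to cells of the ventral striatum, septum and bed nucleus, and *Crh* to the hypothalamus, the central amygdala and scattered cortical interneurons. The granins and the granin-like protein VGF are stored in the same vesicles and are made by most peptidergic neurons. The 10 genes described here are the precursors *Cck*, *Tac2*, *Trh*, *Cartpt*, *Nts*, *Crh*, *Grp* and *Adcyap1* and the secretory genes *Vgf* and *Scg2*. They were chosen by symbol among 36998 gene names on the arrays, through every non-control probe whose gene name equals one of these symbols, which gave 12 probes.

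The data are 2 single-colour arrays carrying probes of 60 bases. Each was hybridised with striatal RNA pooled from 2 male mice, WT mice on 1 array and Cx30 KO mice on the other. All of these mice were 8 weeks old and had been given MPTP, a toxin for dopamine neurons, as 4 injections of 20 mg/kg at 2 h intervals, and the striata were taken on day 1. Cx30 KO mice lack connexin 30, a gap junction protein of astrocytes, in every tissue, and their strain is labelled Cx30-LacZ. The labels give C57BL/6J for the WT mice, whereas according to the methods both genotypes came from interbred heterozygotes. Saline-treated mice were not analysed here, so no value measures the response to MPTP itself. With 1 array for each genotype there is no error between mice and no test, and genotype, pool and dissection cannot be told apart.

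A level is the processed signal of the scanner software in arbitrary units, and ± after a level is the error this software gives. A ratio is Cx30 KO over WT after each array was divided by its 75th percentile signal, 401.2 in WT and 381.8 in Cx30 KO, so that a ratio differs slightly from the quotient of the printed levels. The Z-score sets a log2 ratio against the mean and SD of the 1000 probes nearest in signal. A gene met the criteria, whose limits follow the study, as higher with a ratio of at least 1.5 and a Z-score of at least 2.0, and as lower with a ratio of at most 0.66 and a Z-score of at most −2.0. For 7147 genes with several probes, the log2 ratios of those probes varied with an SD of 0.26, the technical spread used below. Among 22008 genes well above background on at least 1 array, 1.71% were higher and 2.65% were lower by these criteria, and the median log2 ratio was 0.03. As a check of the labels, the brighter probe of *Gjb6*, which encodes Cx30, was 15.4-fold lower, with 1788 on the WT array against 111 on the Cx30 KO array.

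Of the 10 genes, 8 were well above background on both arrays, while *Grp* and *Adcyap1* were not well above background on either array. *Cck* and *Tac2* met the criteria for higher genes, and 0 of the 8 met those for lower genes. Over all genes detected, 1.71% were higher and 2.65% were lower. The log2 ratio was above 0 in 6 genes and below 0 in *Nts* and *Crh*. The median over the 8 genes was 0.33, against 0.03 over all genes detected. By the ratio limits alone, without the Z-score, 2 of the 8 were higher and 1, *Crh*, was lower, where 5.61% of all genes were higher and 5.63% lower. With a ratio of 2 or 0.5 alone, 1 gene, *Cck*, was higher and 0 were lower, against 1.71% and 1.95% of all genes. None (0) of the 12 probes lies on chromosome 14, which carries *Gjb6*.

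**Figure D1:**
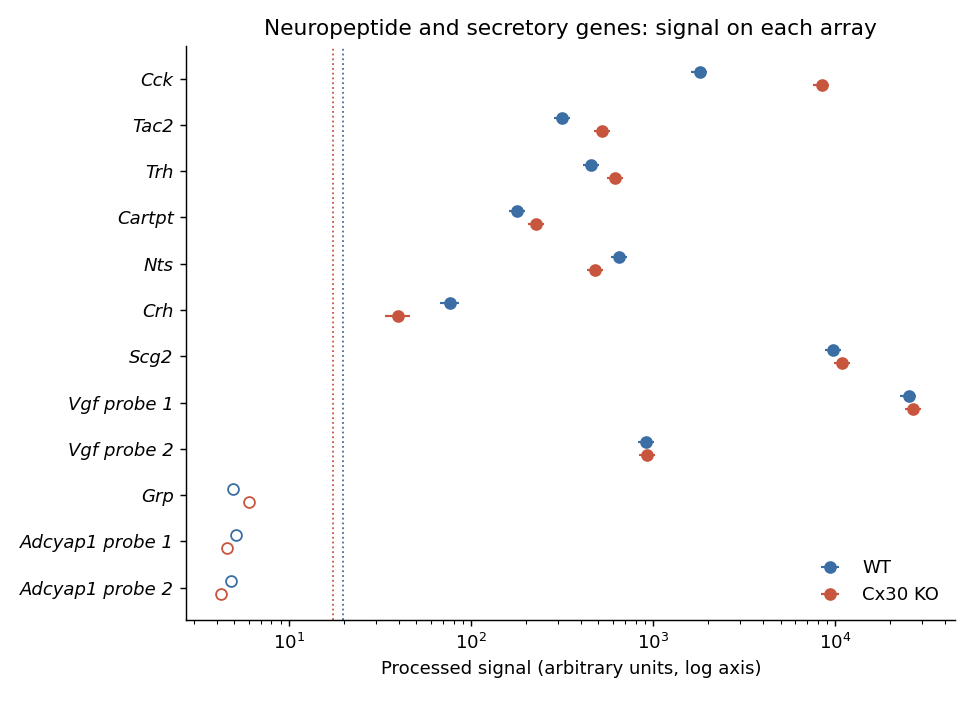
Processed signal of each of the 12 probes on the WT array (blue) and on the Cx30 KO array (red), on a log axis in arbitrary units. Bars are the error of the scanner software, open circles are probes not well above background, and dotted lines mark the detection limit of each array, 19.8 for WT and 17.4 for Cx30 KO. The *Cck* signals lie far apart, the error bars of the arrays overlap for *Vgf* and *Scg2*, and the *Grp* and *Adcyap1* probes lie left of both lines.

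*Cck* encodes cholecystokinin, the most abundant peptide of the cerebral cortex, which is released from cortical projections into the striatum. Its probe (NM_001284508, minus strand of chromosome 9 of mm9, 121398943 to 121399002) was printed in 10 spots on each array. The WT spots had a lowest signal of 1738, a median of 1798 and a highest of 1892, with an SD of 3.02% of their mean. The Cx30 KO spots had a lowest signal of 7919, a median of 8384 and a highest of 8939, with an SD of 3.63% of their mean. The spots of the arrays do not overlap, although they repeat the measurement of a pool and not of mice. Spot by spot at the same position, the log2 ratio ran from 2.22 to 2.38. Over all spots the ratio was 4.91, the log2 ratio was 2.30 with a scanner error of 0.20, and the Z-score was 8.46. Under the alternative scalings, filters and background corrections this log2 ratio lay between 2.25 and 2.30. The filters could not change it, since *Cck* has 1 detected probe.

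**Figure D2:**
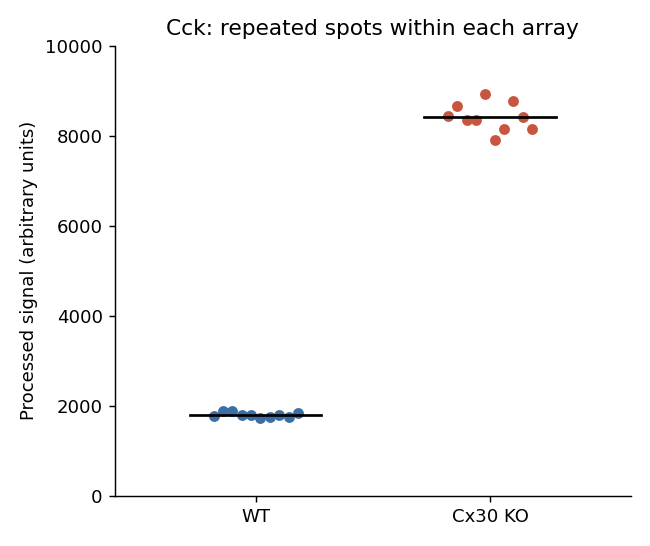
Processed signal in arbitrary units of the 10 *Cck* spots on each array, with the mean as a horizontal line. The WT spots lie between 1738 and 1892 and the Cx30 KO spots between 7919 and 8939.

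*Tac2* encodes neurokinin B, a tachykinin of the habenula, the bed nucleus, the arcuate nucleus and some cortical interneurons. Its probe (NM_001199971, plus strand of chromosome 10, 127168740 to 127168799) gave 315 ± 31.8 in WT against 523 ± 52.4 in Cx30 KO. The levels were apart by more than the scanner error. The ratio was 1.74, the log2 ratio was 0.80 with a scanner error of 0.21, and the Z-score was 2.44. With a Z-score computed from all probes *Tac2* did not meet the criteria, and a 2-fold limit also left it out. The other tachykinin gene measured, *Tac1*, the substance P precursor of direct pathway spiny neurons, had 25565 in WT against 19662 in Cx30 KO. Its log2 ratio of −0.31 did not meet the criteria.

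*Trh* encodes thyrotropin-releasing hormone, best known from the hypothalamus. Its probe had 456 ± 45.9 in WT against 617 ± 61.8 in Cx30 KO, and its ratio was 1.42 and its log2 ratio 0.51 with a scanner error of 0.20. With a Z-score of 1.63 and a ratio under the limit it did not meet the criteria, although the log2 ratio was larger than the spread between probes. *Cartpt* encodes CART, a peptide of the nucleus accumbens and the hypothalamus. Its probe had 179 ± 18.4 in WT against 227 ± 23.0 in Cx30 KO. Its log2 ratio of 0.42 with a Z-score of 1.12 did not meet the criteria. *Nts* encodes neurotensin, which is made by ventral striatal neurons and modulates dopamine signalling. Its probe had 652 ± 65.3 in WT against 480.3 ± 48.2 in Cx30 KO, and its ratio was 0.775 and its log2 ratio −0.37 with a scanner error of 0.20. With a Z-score of −1.10 it did not meet the criteria.

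The probes of *Nts* and *Cartpt* lie in the sequence that encodes the peptides themselves and are shown for that reason. Like the other probes, they measure the RNA of the precursor and not the cut peptide. The *Nts* probe lies on chromosome 10 of mm9 at 101944967 to 101945026 (minus strand) and holds most of the codons of neurotensin. The *Cartpt* probe lies on chromosome 13 of mm9 between 100668967 and 100669956 (minus strand). These positions span 930 bases more than the 60 of the probe, so that it crosses an intron and matches spliced RNA only. Capitals mark neighbouring codons for basic residues in the frame of the peptide, 2 pairs in each probe. The last pair of the *Nts* probe follows neurotensin and the first pair of the *Cartpt* probe precedes a CART peptide, and convertases cut the precursors at both.

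*Nts* probe: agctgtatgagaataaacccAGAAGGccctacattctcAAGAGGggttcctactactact

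*Cartpt* probe: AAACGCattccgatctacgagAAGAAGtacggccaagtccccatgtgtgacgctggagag

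*Crh* encodes corticotropin-releasing hormone, the hypothalamic starter of the stress axis, which is also found in cortical interneurons. Its probe (NM_205769, minus strand of chromosome 3, 19593482 to 19593541) gave 76.8 ± 9.19 in WT against 39.8 ± 6.04 in Cx30 KO. Both signals were dim, though above the detection limit of their array. The log2 ratio was −0.88 with a scanner error of 0.28 and the ratio was 0.545, under the limit of 0.66. The Z-score was −1.70 and did not pass, with an SD of 0.53 among the probes of like signal. The log2 ratio was −0.45 after normexp correction and quantile scaling.

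*Grp* encodes gastrin-releasing peptide of amygdala and other limbic neurons, and *Adcyap1* encodes PACAP, which is made in the hypothalamus, the amygdala and the cortex. The probe of *Grp* and both probes of *Adcyap1* had signals between 4.82 and 5.12 in WT and between 4.25 and 6.06 in Cx30 KO. All of these lie below the lowest signal well above background, so no ratio is given for either gene.

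*Vgf* and *Scg2* encode secretory proteins that neurons store in dense core vesicles and raise with activity or growth factors. *Scg2*, which encodes secretogranin II, had 9703 ± 970.3 in WT against 10904 ± 1090 in Cx30 KO. Its log2 ratio of 0.24 had a Z-score of 1.08. The brighter *Vgf* probe had 25247 ± 2525 in WT against 26674 ± 2667 in Cx30 KO, and its log2 ratio was 0.15. The dimmer one had 917 ± 91.8 against 926 ± 92.7, and its log2 ratio was 0.08. All 3 probes differed between the arrays by less than the spread between probes of a gene. Of 8 genes induced by neuronal activity, 7 had a log2 ratio below 0 on the same arrays, and 1, *Fosb* (0.20), had one above 0. By the criteria 4 of the 8 were lower, *Nr4a1* (log2 ratio −0.96), *Npas4* (−0.86), *Egr1* (−0.79) and *Arc* (−0.77). None (0) were higher, and the median was −0.60. *Fos* (−0.43), *Bdnf* (−0.33) and *Junb* (−0.09) did not meet the criteria.

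**Figure D3:**
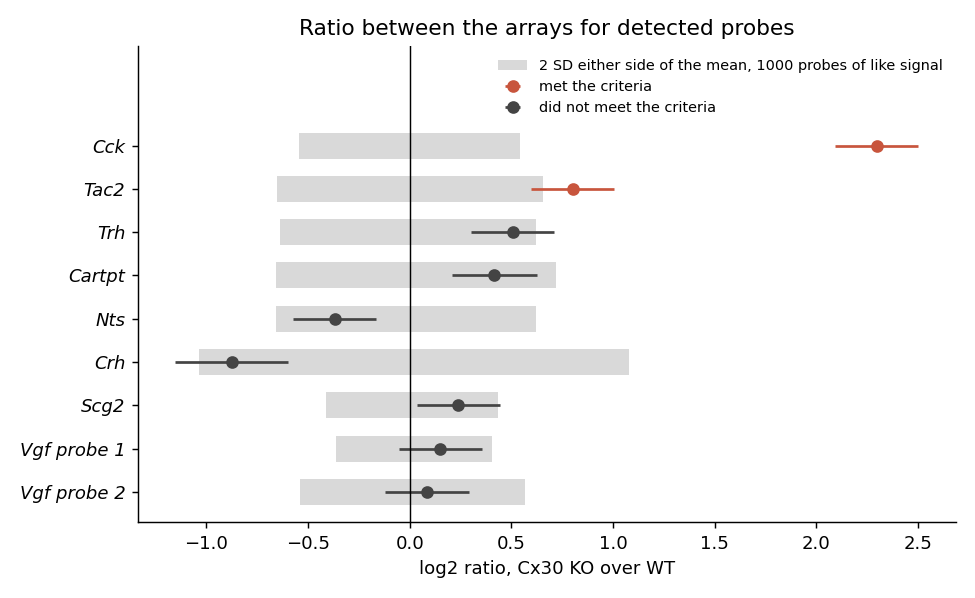
Log2 ratio of Cx30 KO over WT for the 9 probes well above background, with the scanner error as bars. Grey bars span 2.0 SD either side of the mean of the 1000 probes of like signal. *Cck* (2.30) and *Tac2* (0.80) lie outside their grey bars and met the criteria, while the dim *Crh* probe (−0.88) lies inside a wide one.

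The machinery that makes and releases the peptides was measured with 14 genes, all of them well above background. By the criteria 1 was higher and 1 was lower, and the median log2 ratio was 0.17. *Cadps2*, a priming factor for dense core vesicles, had 93.4 in WT against 254 in Cx30 KO, and the log2 ratios of this and its other detected probe were 1.52 and 1.86. *Cadps*, its close relative, had 2913 in WT against 1746 in Cx30 KO, and the log2 ratios of this and its other probe were −0.67 and −0.49. The remaining 12 genes lay between −0.24 for *Cpe*, which trims basic residues from cut precursors, and 0.42 for the convertase *Pcsk2*. The granins *Chga* and *Chgb* had 0.37 and 0.14, and the convertase *Pcsk1* had 0.25.

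Of 16 genes for receptors, binding proteins and a degrading enzyme of the peptides, 12 were detected on either array. By the criteria 3 were higher and 0 were lower, against 1.71% and 2.65% of all genes. *Trhr2*, a receptor of thyrotropin-releasing hormone, had 86.5 in WT against 284 in Cx30 KO, and its log2 ratio was 1.78. *Ntsr1*, a neurotensin receptor, had 47.3 and 131, a log2 ratio of 1.54. Its other probe was detected in Cx30 KO alone, and its log2 ratio at the WT detection limit was 0. The astrocytic *Ntsr2* had 6476 and 5363, a log2 ratio of −0.20. *Crhr2*, a receptor of corticotropin-releasing hormone and urocortins, had 94.6 and 175, a log2 ratio of 0.96, but its other detected probe had −0.15. *Cckbr*, the main brain receptor of cholecystokinin, had 128 and 198, a log2 ratio of 0.70 with a Z-score of 1.74, and did not meet the criteria. *Crhr1*, *Crhbp*, *Tacr3*, the receptor of neurokinin B, and *Adcyap1r1*, the receptor of PACAP, lay between −0.26 and 0.14. *Cckar*, *Trhr*, *Grpr* and *Vipr2* were not well above background on either array.

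Peptides that striatal neurons themselves are known for were measured with 5 genes. *Penk*, the enkephalin precursor of indirect pathway neurons, had 163257 in WT against 169777 in Cx30 KO, and its log2 ratio was 0.13. *Pdyn*, the dynorphin precursor, had 0.21, and the interneuron peptides *Sst* and *Npy* had 0.19 and 0.50. With *Tac1* at −0.31, 0 of these 5 genes met the criteria. The defining genes of striatal spiny neurons were bright on both arrays, and 0 of 8 met the criteria. The brightest were *Ppp1r1b*, which encodes DARPP-32, with 136748 in WT against 152978 in Cx30 KO, and the G-protein regulator *Rgs9* with 61171 against 60155. The median log2 ratio of the 8 genes was −0.20, with a range of −0.40 to 0.23.

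Markers of cortical excitatory neurons were higher beside *Cck*, and those of claustral neurons went both ways. All 6 markers of cortical excitatory neurons had a log2 ratio above 0, and their median was 3.24, or 1.26 after normexp correction and quantile scaling. Only *Neurod2* and *Tbr1* were well above background on both arrays. With the other 4 genes set at the WT detection limit, or at their own WT signal if higher, the median was 2.14. By the criteria 3 of the 6 were higher. *Neurod2* had 49.0 in WT against 594 in Cx30 KO, and *Tbr1* had 78.6 against 423. *Slc17a7*, the cortical glutamate transporter, had 20.8 in WT against 238 in Cx30 KO, a ratio of 12.1. Its WT signal was not well above background, so this ratio is uncertain. *Neurod6* and *Emx1* were also detected in Cx30 KO alone and did not meet the criteria at the WT detection limit. The signals of the 6 markers summed to 175 in WT and to 1391 in Cx30 KO. Among 4 markers of the claustrum and endopiriform nucleus, *Nr4a2* had 74.2 and 871, a log2 ratio of 3.62, and *Gnb4* had 0.68, and both met the criteria as higher. *Lxn*, the brightest of the 4, had 5281 in WT against 3409 in Cx30 KO, a log2 ratio of −0.56, and did not meet the criteria. *Ntng2* was detected in Cx30 KO alone and did not meet them at its limit. The signals of these 4 markers summed to 5640 in WT and to 4715 in Cx30 KO, and *Lxn* made up most of each sum. None (0) of 3 detected thalamus markers met the criteria, and *Slc17a6*, the glutamate transporter of thalamic and hypothalamic neurons, was not well above background. Among glial markers, 4 of 6 of oligodendrocytes and 4 of 5 of microglia met the criteria as lower and 0 as higher, with median log2 ratios of −0.70 and −0.90. Of 6 astrocyte markers 2 were lower by the criteria and 0 were higher, but 3 had a ratio over 1, and the median was −0.16. The part of the cortical, claustral and glial markers in the result for *Cck* was not tested. In a bulk sample, fewer cells of a type and less RNA for each cell cannot be told apart.

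**Figure D4:**
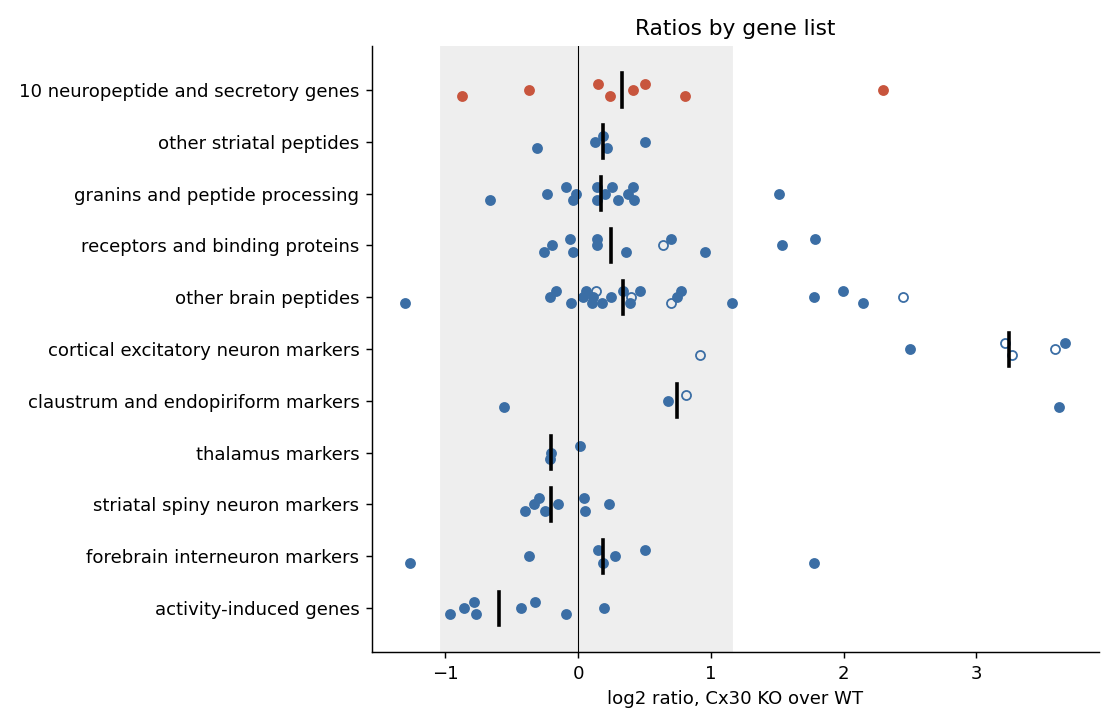
Log2 ratio of Cx30 KO over WT for each detected gene of 11 lists, in red for the 10 genes and in blue for the others, with the list median as a black line. Open circles are genes detected on 1 array only, and the grey band holds the central 95% of all genes detected. In the top row 7 of 8 genes lie inside the band and *Cck* (2.30) lies outside it, and the cortical excitatory neuron markers have the median farthest from 0 (3.24, or 1.26 after normexp correction and quantile scaling, which is not plotted).

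Many neuropeptide promoters hold a cAMP response element (CRE, TGACGTCA), the site through which CREB links neuronal activity to transcription. Promoters of 3 of the genes are shown, *Scg2* and *Cartpt* with the full site and *Cck* with its core. The core is also present in *Adcyap1*, *Nts* and *Trh*, whose promoters are not shown. RefSeq promoters of 300 bases on GRCm38.p6, with 250 bases before the start, were found for 7 of the 10 genes. These 7 genes have 8 promoters, and a gene counted with a match in any of its own. The percentages of all promoters count promoters and not genes. The full CRE, which reads the same on both strands, was present in *Scg2* and *Cartpt*, 2 of 7, against 1.79% of all 32851 promoters. Its core in either orientation (TGACG or CGTCA), which the full CRE contains, was present in 6 of 7 genes and in 20.8% of all promoters, and was absent from the window of *Tac2*. In *Cck* the core began 47 bases and an E-box (CACGTG) 66 bases upstream of the start, and 7.15% of all promoters hold this E-box. The 120 bases before the start are printed with these motifs in capitals, all from the minus strand, for *Cck* at chr9:121495695-121495814, *Scg2* at chr1:79440027-79440146 and *Cartpt* at chr13:99900684-99900803. A match describes the letters and no binding was measured.

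*Cck* promoter: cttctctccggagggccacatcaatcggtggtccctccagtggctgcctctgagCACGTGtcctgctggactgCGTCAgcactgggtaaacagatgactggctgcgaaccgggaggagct

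*Scg2* promoter: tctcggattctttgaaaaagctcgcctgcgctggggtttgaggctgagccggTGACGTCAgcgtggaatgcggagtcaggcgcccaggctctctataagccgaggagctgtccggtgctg

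*Cartpt* promoter: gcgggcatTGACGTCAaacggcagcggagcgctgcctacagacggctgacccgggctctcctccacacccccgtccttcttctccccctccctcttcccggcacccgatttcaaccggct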

How the data were processed

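Total striatal RNA of pooled MPTP-treated mice was hybridised by the authors to single-colour Agilent arrays. The signals were extracted by the authors with Agilent Feature Extraction, version 10.7.1.1 per the file headers and 9.5.1.1 per the submitters' processing notes. The deposited processed signals are linear intensities, background-subtracted and detrended within each array but not normalised between arrays. Probe positions refer to mm9 per the file headers.

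Control spots and spots marked as outliers (48 in WT and 52 in Cx30 KO) were left out, and repeated spots were averaged as log2 values. Detection required the software's well-above-background mark on 50% or more of a probe's spots (32019 probes in WT, 32961 in Cx30 KO), and 0 probes were saturated. Older symbols of 1897 probes were updated with a RefSeq table. The value of a gene is that of its brightest probe among those detected on either array. A ratio of a gene detected on 1 array was limited by the lowest signal well above background on the other, or by the gene's own signal there if higher. The limits on ratio and Z-score are those of the study's methods, but the Z-score was taken here over the log2 ratios of the 1000 probes nearest in signal. The ratio and the calls were checked on simulated data. Calls near the ratio limits, of dim probes and of genes detected on 1 array were not tested in that check. No test was run, and precision is limited by having 1 array for each genotype. The alternatives used limma 3.58.1 (R 4.3.3) for normexp with an offset of 50. The authors' table of normalised intensities, whose medians were 41.2 on both arrays, served as another alternative, and its method of normalisation is not given in the sources used here. Named are the 10 genes, genes of the other lists that met the criteria, receptors of the peptides, and the brightest 2 genes of a marker list. Any other gene named was chosen after its values were seen, and 1 marker gene is not reported here by name. The members and lists were chosen with earlier results of these data known.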

Additional observations from a re-analysis of the deposited data

How the results depend on the processing

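The 15 results were recomputed under up to 12 alternatives each, 125 values in all. A value counted as moved when it changed by over 0.26 on the log2 scale, the SD of probes of 1 gene, and a count when it changed by over 1.5 times. By this measure 121 values stayed and none (0) changed direction for a gene that met the criteria. Many of these values could not move, because 7 of the 8 detected genes have 1 detected probe. For these 7, changing the filter, keeping outlier spots or averaging probes returned the main value. The authors' values nearly repeated quantile normalisation, with *Cck* at 2.285 and 2.286. The number of the 10 genes that met the criteria fell from 2 to 1 with a Z-score over all probes and to 1 with a ratio of 2 or 0.5 alone, and *Tac2* was the gene lost in both cases. In the other alternatives the log2 ratio of *Tac2* ran from 0.70 to 0.80. The median of the cortical markers was 1.26 with normexp and quantile normalisation. Over all genes, 377 were higher and 583 lower by the criteria, 221 and 300 with a Z-score over all probes, and 1235 and 1240 by the ratio limits alone. The median of the 8 detected genes stayed between 0.27 and 0.33. Keeping the outlier spots changed none (0) of these counts. No paired analysis was possible because each genotype has 1 array, and leaving out a replicate was not possible for the same reason. Low signal limits *Crh*, whose log2 ratio moved from −0.88 to −0.45 with normexp and quantile normalisation.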

Other observations

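Peptides of other brain regions were measured with a list of 30 genes, of which 23 were detected. By the criteria 4 were higher and 1 was lower in Cx30 KO, against 1.71% and 2.65% of all genes. The median log2 ratio was 0.34. *Cort*, the cortistatin precursor of cortical and hippocampal interneurons, had 139 in WT against 525 in Cx30 KO, and its log2 ratio was 1.99. *Vip*, a peptide of another class of cortical interneurons, had 37.0 and 120.2, a log2 ratio of 1.77. The hypothalamic peptides *Ghrh* and *Hcrt* were dim, with log2 ratios of 2.15 and 1.15, and the second *Ghrh* probe was detected in Cx30 KO only. *Pthlh*, the precursor of parathyroid hormone-related protein, had 175 in WT against 67.6 in Cx30 KO, and its log2 ratio was −1.30. The hypothalamic precursors *Avp* (0.46), *Oxt* (0.04) and *Pomc* (0.25) did not meet the criteria, and *Pmch* was detected in Cx30 KO only and did not meet them at its limit.

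Among 8 interneuron markers, 7 were detected, and *Pvalb*, a calcium-binding protein of fast-spiking interneurons, was lower with 4533 in WT against 1787 in Cx30 KO, and its log2 ratio was −1.27. *Vip*, which is also in this list, was the 1 marker that was higher, and *Lhx6*, *Chat*, *Sst* and *Npy* lay between 0.15 and 0.50. *Gad1*, a GABA-synthesising enzyme of spiny neurons and interneurons alike, had 6255 in WT against 4611 in Cx30 KO, and its log2 ratio of −0.37 did not meet the criteria. Its other detected probes, both dimmer, had log2 ratios of 0.27 and 0.25.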
